A study of Mus musculus with 3 samples.

Results

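The steroid hormone synthesis enzymes of the mouse ovary were followed over 3 spotted arrays. They comprise 9 genes of the 19459 named on the array (Star, Cyp11a1, Fdx1, Fdxr, Hsd3b1, Cyp17a1, Por, Cyp19a1 and Hsd17b1), and each was found on 1 probe under its current symbol. The genes were chosen by name, with ratios of these arrays already known, so the values below describe them and no test of the set is made. Every array carried ovary RNA of C57BL/6 mice that had been treated in Cy5 and RNA of untreated mice (WT) in Cy3. The ADSC2 array held ovaries of mice with premature ovarian failure (POF mice) whose ovaries had both been injected with adipose-derived stem cells (ADSC, mesenchymal cells grown from fat). The ADSC1 array held ovaries of POF mice given the cells through a vein. The POF array held ovaries after cyclophosphamide alone, an alkylating drug that damages follicles. The labels name the drug for the POF group and call the mice of both ADSC groups POF mice. Ovaries were taken 1 week after treatment, and age, the dose and the number of animals behind each RNA are not given in the labels.

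Steroid synthesis in the ovary is split between cell types. Star carries cholesterol into the mitochondrion, where Cyp11a1 cleaves its side chain with electrons passed from Fdxr to Fdx1, and Hsd3b1 turns the product into progesterone. In theca cells the microsomal enzyme Cyp17a1, supplied with electrons by Por, makes androgens, and in granulosa cells Cyp19a1, also supplied by Por, turns androgens into oestrogens, which Hsd17b1 converts into oestradiol. Luteal cells make progesterone at high rates and depend on Star, Cyp11a1 and Hsd3b1.

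Each group had 1 array, so differences have no replicate check, no p-value is given, and precision is limited by that number. The dyes were not exchanged: a ratio to WT includes any dye effect of its gene, which a difference between 2 arrays does not. WT was the single group on all 3 arrays, and the labels do not say whether it was 1 RNA pool. Over the actin, Gapd, Ldha and Rpl5 control genes, with 48 spots each, log2 ratios had SDs of 0.07 to 0.17 within an array, and the means of a control gene differed between arrays by up to 0.24 in ADSC2 minus POF (Ldha, negative), 0.51 in ADSC1 minus POF (Rpl5) and 0.28 in ADSC2 minus ADSC1 (Rpl5, negative). The WT channel of all genes above background in both channels shifted between arrays with an SD of 0.23 to 0.25 log2 units. Ratios were scaled by loess, a fit that sets genes of equal brightness to a common centre. Centring on the median instead moved the all-gene median of the ratios to WT by 0.15 (ADSC2), 0.17 (ADSC1) and 0.32 (POF). Markers of ovarian cells other than the 9 genes were mostly above background in the treated channels, with 5 of 7 theca markers on each array (not Ptch1 and Hhip), 9 or 10 of 12 granulosa markers (Amh on no array), and 8 of 8 luteal markers. Of the adrenal cortex markers, Cyp11b2, Cyp21a1 and Mc2r were not above background in any channel, and Cyp11b1 was above background in the WT channel of the ADSC1 array alone. The other adrenal markers, Mrap and Akr1b7, were above background in both channels of every array, and Akr1b7 stood at log2 ratios of 1.61 in ADSC2, 1.07 in ADSC1 and 2.02 in POF.

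The first steps, carried out in the mitochondrion, did not move together over the 3 arrays. The starts of Cyp11a1, of its electron donors and of Cyp19a1 are shown because Cyp11a1 and Cyp19a1 are the P450 enzymes of this set with a sequence in the table, and Fdx1 and Fdxr, which both serve the Cyp11a1 step, had different ratios. Cyp11a1 and Cyp19a1 have other annotated starts, and the start shown for each is that with an AGGTCA match. The Cyp11a1 start shown lies inside the gene, and the window at the gene's 5′ end (chr9:57997774-57998023) has no AGGTCA. The Fdxr start shown also lies inside its gene, whose 5′ end is at chr11:115277101, so part of the Fdxr window is gene sequence. The bases are the 250 before an annotated start, read 5′ to 3′ on the gene's strand from RefSeq (GRCm38.p6). Capitals mark AGGTCA, the half-site bound by the steroidogenic nuclear receptors Nr5a1 and Nr5a2, TATAAA and GGGCGG (a GC box), each on either strand, and no match overlapped one of another motif.
Cyp11a1, chr9:58014702-58014951, plus strand: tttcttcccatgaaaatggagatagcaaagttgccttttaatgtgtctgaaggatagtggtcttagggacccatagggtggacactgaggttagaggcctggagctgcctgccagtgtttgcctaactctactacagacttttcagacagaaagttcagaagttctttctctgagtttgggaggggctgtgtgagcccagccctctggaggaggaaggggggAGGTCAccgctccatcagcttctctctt
Fdx1, chr9:51963603-51963852, minus strand: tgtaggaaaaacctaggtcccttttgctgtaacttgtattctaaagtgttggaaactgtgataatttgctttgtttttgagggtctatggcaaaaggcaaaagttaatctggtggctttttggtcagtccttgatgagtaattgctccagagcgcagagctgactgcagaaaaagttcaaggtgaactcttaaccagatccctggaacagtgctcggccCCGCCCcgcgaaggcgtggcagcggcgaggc
Fdxr, chr11:115276970-115277219, minus strand: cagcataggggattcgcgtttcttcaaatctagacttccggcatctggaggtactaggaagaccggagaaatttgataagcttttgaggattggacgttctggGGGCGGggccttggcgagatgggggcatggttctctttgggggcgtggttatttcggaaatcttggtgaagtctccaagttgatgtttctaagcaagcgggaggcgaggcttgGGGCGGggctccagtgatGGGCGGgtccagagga
Cyp19a1, chr9:54268165-54268414, minus strand: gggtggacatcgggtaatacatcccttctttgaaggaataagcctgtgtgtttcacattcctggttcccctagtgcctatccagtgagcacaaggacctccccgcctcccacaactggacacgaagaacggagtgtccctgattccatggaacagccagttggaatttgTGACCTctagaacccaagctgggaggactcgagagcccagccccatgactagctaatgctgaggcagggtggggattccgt
Of the 9 members, 6 had a sequence in the table, in 9 windows. AGGTCA occurred in 2 of these windows, beginning 28 bases before the start shown for Cyp11a1 and, as its complement, 81 bases before that of Cyp19a1, and in 14.0% of all 32851 windows. TATAAA occurred in 2 of the 9 windows, both of other Cyp19a1 starts, against 12.4% of all. GGGCGG occurred in 3 of the 9 windows, among them 3 times for Fdxr and 1 time for Fdx1, against 32.7% of all. Of the other motifs searched on both strands, CAAGGTCA, a longer form that contains AGGTCA, was in 0 of the 9 windows (1.33% of all), TGACGTCA, the cyclic AMP response element, in 0 (1.55%) and TGACG in 1, of another Cyp11a1 start (17.8%). The array does not tell the starts of a gene apart.

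Star differed in direction between the groups given cells. Its background-subtracted Cy5 signal was 4941 intensity units on the ADSC2 array, 2891 on the ADSC1 array and 3110 on the POF array, against 3585, 4392 and 3321 units for WT on the same arrays. The log2 ratio to WT was 0.29 for ADSC2, -0.68 for ADSC1 and -0.44 for POF, the last turning to 0.06 after median centring. The ADSC2 level lay above the WT levels of the 3 arrays, and the ADSC1 and POF levels lay below them. As a difference of ratios, Star was 1.65-fold higher in ADSC2 than in POF (log2 difference 0.72) and 1.96-fold higher in ADSC2 than in ADSC1 (0.97), and the ADSC1 minus POF difference was -0.25. Of 9457 genes measured, 69 had a higher ADSC2 minus ADSC1 difference. The Star spot and the Cyp11a1 spot on the ADSC1 array carry a software flag of -100, whose meaning is not stated.

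Cyp11a1 was highest in POF. Its Cy5 signal was 51148 units for ADSC2, 43182 for ADSC1 and 59591 for POF, against 31180, 37129 and 28042 for WT. The Cy5 spots were at 78.2%, 66.0% and 91.1% of the scanner limit, so that of POF was close to the top of the scale. The log2 ratios to WT were -0.01, -0.32 and 0.41 in the same order of arrays, and median centring made them 0.96, 0.47 and 1.26, so the side of WT on which ADSC1 and ADSC2 lay depends on the scaling. The differences from POF did not: -0.42 for ADSC2 (-0.61 to -0.29 over the alternatives) and -0.72 for ADSC1 (-0.90 to -0.62).

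The electron donors of Cyp11a1 parted from each other. Fdxr, the flavoprotein that takes electrons from NADPH, had Cy5 signals of 3124 units in ADSC2, 1932 in ADSC1 and 3992 in POF, against 3932, 3118 and 2791 in WT. Its log2 ratios were -0.44, -0.72 and 0.15, so that both groups given cells lay below WT and POF slightly above it. The differences from POF were -0.59 for ADSC2 and -0.86 for ADSC1, and 62 of 9168 genes had a lower ADSC1 minus POF difference. Fdx1, the small iron-sulphur protein that carries the electrons on, varied least of the 8 genes with a ratio on every array: 14585, 15778 and 12980 units in Cy5, against 13570, 16510 and 11498 for WT. Its log2 ratios were -0.35, -0.42 and -0.34, its differences between arrays were within 0.09 of 0, and all 3 ratios turned positive after median centring (0.35, 0.18 and 0.34).

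Hsd3b1 could not be compared between treated groups, because its Cy5 spot was saturated at the scanner limit on all 3 arrays. The WT signal was 42558 units on the ADSC2 array, 52884 on the ADSC1 array and 37795 on the POF array, at 65.2%, 81.0% and 58.0% of the limit. The ratio to WT is therefore only a lower bound, at least 1.06-fold in POF after loess. The measured log2 ratios after loess of -0.18 in ADSC2 and -0.31 in ADSC1 are bounds below 1-fold and give no direction. These bounds were 0.87 and 0.56 with median centring and 0.29 and 0.0 as processed by the authors. Whether they give a direction thus depends on the scaling. The mouse has several closely related Hsd3b genes, and the probe sequence was not used here, so signal from a relative cannot be told apart. Hsd3b1 was left out of the counts and medians, which cover the other 8 genes.

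**Figure D1:**
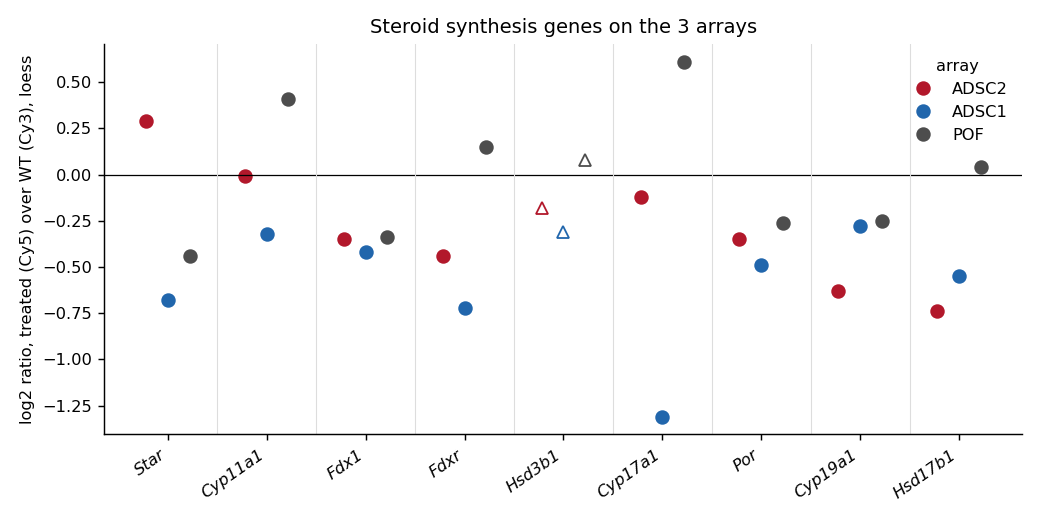
Log2 ratio of treated (Cy5) over WT (Cy3) signal after loess for the 9 genes, with 1 point per array (ADSC2, ADSC1, POF); open triangles are lower bounds for Hsd3b1, whose Cy5 spot was saturated. Cyp17a1 spans the widest range, at -0.12, -1.31 and 0.61, and the 3 points of Fdx1 lie between -0.42 and -0.34.

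Cyp17a1, the androgen-producing enzyme of theca cells, varied most between the arrays. Its Cy5 signal was 42176 units in ADSC2, 19487 in ADSC1 and 54249 in POF, against 28404, 35436 and 22549 units for WT. The Cy5 spots were at 64.5%, 29.9% and 83.0% of the scanner limit, so that of POF was close to the top of the scale. The POF level was above all 3 WT levels, the ADSC1 level far below them and the ADSC2 level just below the lowest. The log2 ratios to WT were -0.12 for ADSC2 (0.82 with median centring and 0.38 as processed by the authors), -1.31 for ADSC1, a ratio of 0.404, and 0.61 for POF, a ratio of 1.52. In ADSC1 16 of 10156 genes had a lower ratio to WT, and the value was also negative with median centring (-0.61) and as processed by the authors (-1.09).

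The Cyp17a1 difference was -1.91 between ADSC1 and POF, a 3.77-fold lower ratio in ADSC1, and 3 of 9168 genes had a lower one. It ranged from -2.08 to -1.61 over the alternatives. The treated channel accounted for -1.61 of it and the WT channel, higher by 0.30 on the ADSC1 array, for the remainder. Between ADSC2 and POF the difference was -0.72, with -0.62 in the treated channel and 0.11 in the WT channel. ADSC2 was 2.28-fold above ADSC1 (log2 difference 1.19, treated channel 0.99, WT channel -0.20). Of 8021 genes above background in both channels, 0.14% had a treated-channel shift between ADSC1 and POF as large as that of Cyp17a1, and 16% had a WT-channel shift as large.

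Of 7 other theca markers, 5 were measured beside it, with 3 above 0 and 2 below 0 in ADSC1 minus POF and a median of 0.02. The theca hormone Insl3 was at -0.44 and the hedgehog target Gli1 at 0.96, a value of uncertain size because Gli1 was not above background in the WT channel of the ADSC1 array. The summed treated level of the 7 was 9463 units in ADSC2, 8766 in ADSC1 and 9395 in POF, against 10266, 9226 and 10035 in WT. In whole-ovary RNA, fewer cells of a type and less RNA per cell cannot be told apart. Por, the reductase that supplies Cyp17a1, Cyp19a1 and other microsomal P450 enzymes, had no such difference in its ratio: -0.35 in ADSC2, -0.49 in ADSC1 and -0.26 in POF.

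Por had the largest WT shift of the 9 genes. Its WT signal was 946 units on the ADSC2 array, 2746 on the ADSC1 array and 996 on the POF array, beside Cy5 signals of 691, 1998 and 997. Both channels of the ADSC1 array were thus higher together: after scaling between arrays, the WT level was 2.08-fold higher on the ADSC1 than on the POF array (log2 1.05) and the treated level 1.77-fold higher (0.82). Of 8021 genes, 0.24% had a WT shift as large. The WT range over the arrays was 1.41 log2 units for Por and 0.10 to 0.40 for the other 8 genes, so a Por level read from the treated channel alone would differ in sign from the ratio between ADSC1 and POF (0.82 against -0.23). Whether the spots or the RNA differed was not tested.

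**Figure D2:**
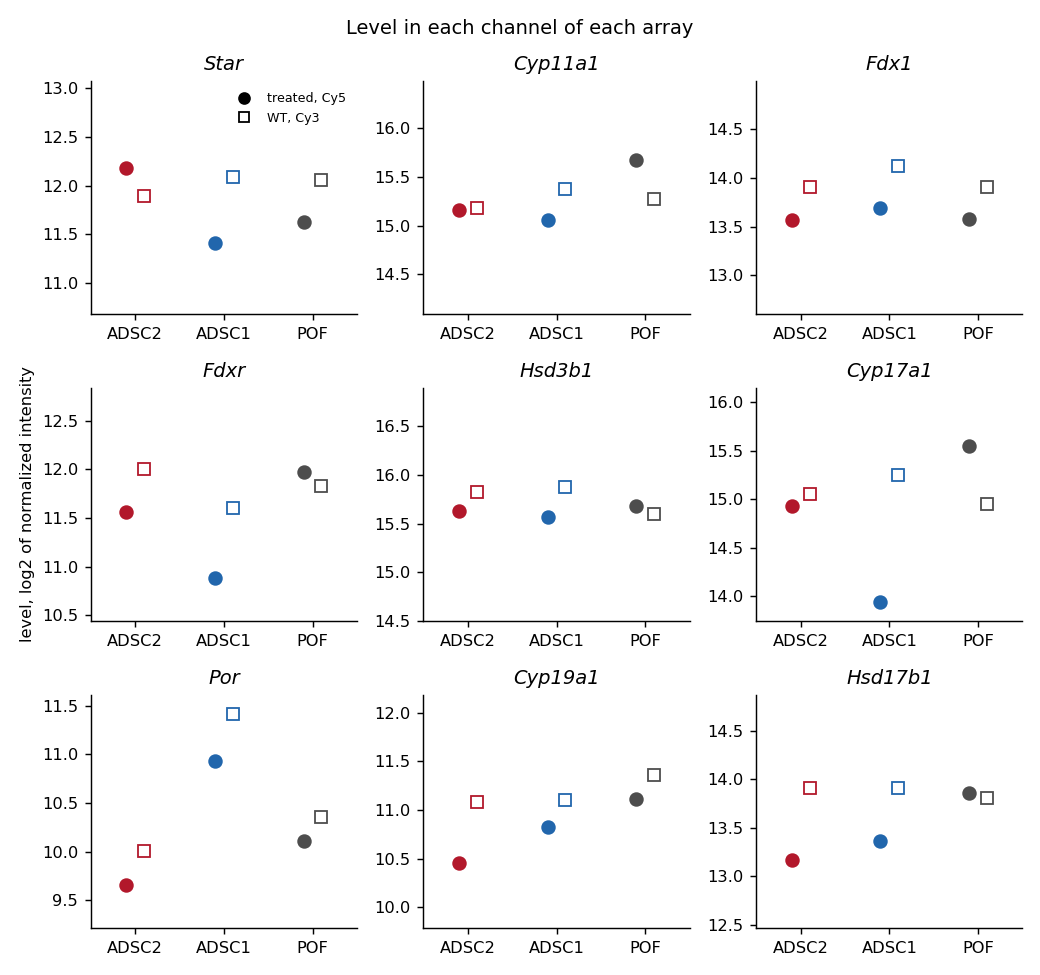
Level of each gene as log2 of normalized intensity in the treated channel (filled circles, Cy5) and the WT channel (open squares, Cy3) of the ADSC2, ADSC1 and POF arrays; every panel spans 2.4 log2 units, and levels are not comparable between genes. The WT squares of Por spread over 1.41 units, and the Cyp17a1 circle of ADSC1 lies below all its WT squares.

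Cyp19a1 and Hsd17b1, the oestrogen-producing enzymes of this set, were lowest in ADSC2. Hsd17b7, an enzyme of oestradiol synthesis outside the set, was instead highest in ADSC2, at -0.53 against -1.25 in ADSC1 and -0.97 in POF. Cyp19a1, the aromatase of granulosa cells, had Cy5 signals of 1324 units in ADSC2, 1836 in ADSC1 and 2128 in POF, against 2110, 2184 and 2037 in WT. The log2 ratios were -0.63, -0.28 and -0.25, and the treated level of ADSC2 lay below the WT levels while that of POF lay among them. Median centring made the ratios -0.43, -0.02 and 0.20, so the side of WT on which POF lay depends on the scaling. The ADSC2 minus POF difference was -0.38 and the ADSC1 minus POF difference -0.03. The first was larger than any control gene's difference in that comparison, and 9.97% of all genes had a lower one. The second was within the range of the control genes in its comparison.

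Hsd17b1, which makes oestradiol from oestrone, had Cy5 signals of 10970 units in ADSC2, 12382 in ADSC1 and 15934 in POF, against 13755, 14479 and 10747 in WT. The ratios were -0.74, -0.55 and 0.04 on the log2 scale. Both groups given cells were below the WT levels. Median centring moved the ratios to -0.08, 0.02 and 0.73, so the side of WT depends on the scaling. The differences from POF were -0.78 for ADSC2, with 79 of 9077 genes lower, and -0.59 for ADSC1, and their sign was negative under every alternative run. The WT level of Hsd17b1 was steady over the arrays, within a range of 0.10.

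Other granulosa markers were mostly lower in ADSC2 than in POF, and none reached 2-fold (0 of 9). Over 9 of 12 measured granulosa markers other than Cyp19a1 and Hsd17b1, the median ADSC2 minus POF difference was -0.37, with 7 below 0, among them the inhibin subunits Inha (-0.70) and Inhba (-0.69) and Nap1l5 (-0.74). Fshr was at -0.06, and Kitl (0.73) and Nr5a2 (0.22) were above 0. The summed treated level of the 12 was 69723 units in ADSC2, 98760 in ADSC1 and 99365 in POF, against 155002, 162807 and 155608 in WT. The gap to WT depends on the scaling: Inha was at -1.31 in ADSC2, -0.85 in ADSC1 and -0.61 in POF after loess, and at -0.36, -0.03 and 0.22 with median centring, and Inhba likewise was at -0.52, -0.12 and 0.09 with median centring. The part of this list in the values of Cyp19a1 and Hsd17b1 was not tested. For the luteal markers other than Star and Cyp11a1, the ADSC2 minus POF median was 0.32, with 6 of 8 above 0, and the ADSC2 minus ADSC1 median was 0.38, with 8 of 8 above 0. Against WT the luteal medians were -0.28 in ADSC2, -0.62 in ADSC1 and -0.30 in POF, with 5, 6 and 6 of 8 below 0. Those above WT in ADSC2 were Akr1c18 (1.32), Timp1 (0.67) and Ptgfr (0.22). The summed treated level of the luteal markers, in which bright genes weigh most, was 89280 units in ADSC2, 74524 in ADSC1 and 70054 in POF. The WT sums were 77336, 84905 and 79119 units, and the part of this list in the Star values was not tested either. Markers of other cells also differed between the arrays. Macrophage markers were above 0 in 9 of 9 measured in ADSC2, 10 of 10 in ADSC1 and 10 of 10 in POF, with median log2 ratios to WT of 1.49, 1.10 and 0.53, and a summed treated level of 68500, 52968 and 43935 units against 20611 to 23555 in WT. Oocyte markers had medians of -0.15 in ADSC2, 0.57 in ADSC1 and -0.24 in POF, and a summed treated level of 16398, 29820 and 17095 units against 17046 to 19189 in WT. Their ADSC1 minus POF difference had a median of 1.04, with 9 of 9 above 0.

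Red cell, oviduct and fat markers moved as well. The 3 red cell markers measured of 6 had medians of 1.79 in ADSC2, 0.64 in ADSC1 and 1.80 in POF against WT, and the ADSC1 minus POF median was -1.21, with 3 of 3 below 0 (summed treated level 43848, 28647 and 42702 units, against 11544 to 17664 in WT). Oviduct markers were below 0 in 4 of 4 measured in ADSC2 minus POF (median -0.64) and 5 of 5 in ADSC1 minus POF (median -0.54), with a summed treated level of 2723, 2271 and 7323 units against 1861 to 2265 in WT. The oviduct glycoprotein gene Ovgp1 was at 0.20 in ADSC2, 0.12 in ADSC1 and 4.02 in POF, although its WT signal was not above background on any array, so these sizes are uncertain, and Foxj1 was not above background in any channel. Fat markers had medians of -0.17 in ADSC1 and -0.30 in POF over 4 of 8 measured each. In ADSC2 the median of 5 was 1.48, but 1 of them, Cfd (2.47), was above background only in the treated channel of that array. Of the other 4 in ADSC2, Car3 (1.48) and Fabp4 (1.49) were above 0, and Plin1 (-0.32) and Lpl (-0.5) were below. The ADSC2 minus POF median of these 4 was 0.90. The summed treated level of fat markers was 5625, 3476 and 3890 units against 3797 to 4410 in WT, and Adipoq and Lep were not above background in any channel. The part of these lists in the values of the 9 genes was not tested.

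Set against WT, the 8 genes lay mostly below it in the groups given cells and on both sides of it in POF. In ADSC2 the median log2 ratio was -0.35, from Hsd17b1 (-0.74) to Star (0.29), with 7 of 8 below 0, beside 49.8% of all genes. In ADSC1 the median was -0.52, from Cyp17a1 (-1.31) to Cyp19a1 (-0.28), with 8 of 8 below 0, beside 49.6% of all genes. In POF the median was -0.10, from Star (-0.44) to Cyp17a1 (0.61), with 4 of 8 below 0, beside 48.3% of all genes. A 2-fold ratio was reached by 0 of 8 in ADSC2, 1 of 8 in ADSC1 (Cyp17a1) and 0 of 8 in POF, and by 3.03%, 2.55% and 2.09% of all genes in either direction. Split by direction, 2.68% of genes were higher and 0.352% lower in ADSC2, 2.0% and 0.551% in ADSC1, and 1.16% and 0.928% in POF. Median centring turned the member medians of ADSC2 and POF positive (0.14 and 0.49) and left that of ADSC1 at -0.12. It also changed the genes past 2-fold. Cyp17a1 (1.43) and Cyp11a1 (1.26) then passed it in POF, beside 294 of 9486 genes. Cyp17a1 in ADSC1 (-0.61) no longer did, beside 461 of 10156 genes that passed. In the authors' own scaling, a method they did not state, 5 of the 8 genes had the sign they had after loess on all 3 arrays. The other three, Fdx1 (0.08), Cyp17a1 (0.38) and Cyp11a1 (0.02), changed sides in ADSC2 only, and the POF median was 0.03.

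**Figure D3:**
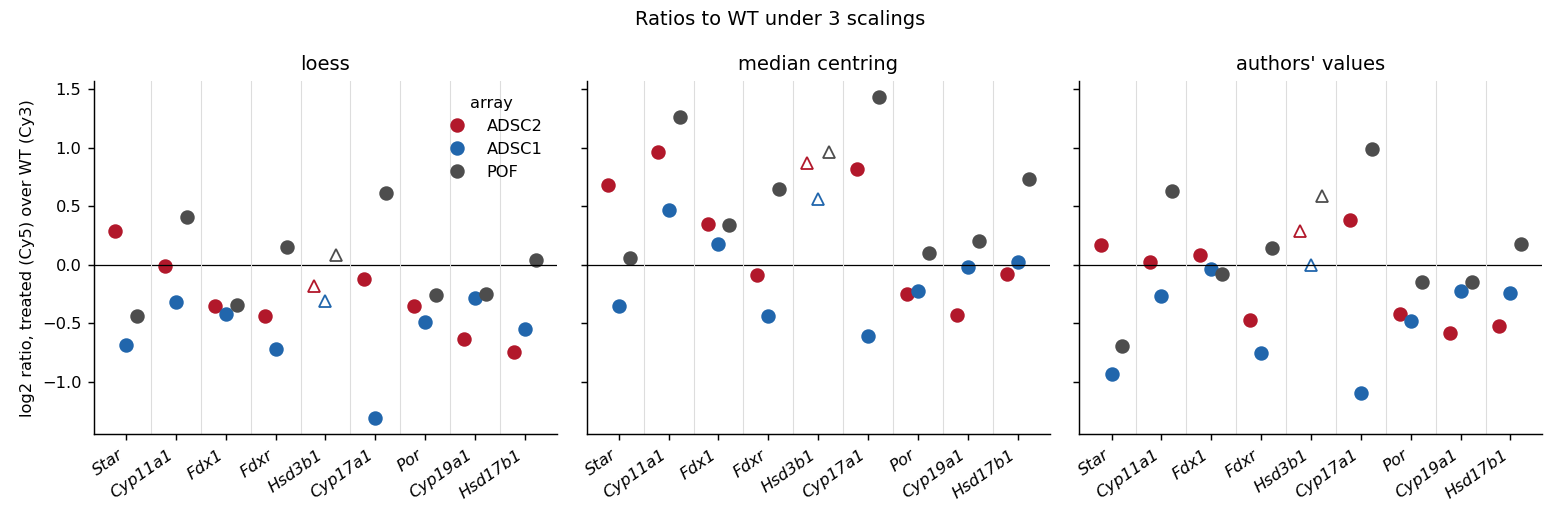
Log2 ratio to WT of the 9 genes on the ADSC2, ADSC1 and POF arrays after loess, after median centring and in the authors' processed values; open triangles are the saturated Hsd3b1. All points move up under median centring, while the ADSC1 point of Cyp17a1 stays below 0 in each panel (-1.31, -0.61 and -1.09).

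Comparing each group given cells with POF asks how the ovaries differed from those with chemotherapy alone, and both comparisons share the POF array. In ADSC1 all 8 genes had a negative difference from POF, with a median of -0.42, while the median of the 9168 genes measured was near 0. The difference was larger than that of any control gene in the same comparison (0.51) for Cyp17a1, Fdxr, Cyp11a1 and Hsd17b1. Of all genes, 3.22% had a lower difference than Hsd17b1 (-0.59). Only Cyp17a1 reached 2-fold (1 of 8, beside 0.862% of all genes, 0.513% higher and 0.349% lower). For Fdx1 and Cyp19a1 the ADSC1 minus POF difference was close to 0 (-0.09 and -0.03). In ADSC2 the median was -0.40, with 7 of 8 below 0 and 0 of 8 at 2-fold, beside 0.804% of 9077 genes (0.65% higher and 0.154% lower). In that comparison the genes that differed by more than any control gene (0.24) were Hsd17b1 (-0.78), Cyp17a1 (-0.72), Star (0.72), Fdxr (-0.59), Cyp11a1 (-0.42) and Cyp19a1 (-0.38). Many other genes passed that value too, since 9.97% of all genes had a lower difference than Cyp19a1. The share of all genes beyond the control differences was not counted. A control difference rests on means of 48 spots, and each of the 8 genes on 1 spot per array. The treated channel of the 8 genes differed from POF by a median of -0.39 in ADSC1 and -0.48 in ADSC2, and the WT channel by 0.10 and -0.05.

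The comparison of the 2 routes set ADSC2 against ADSC1. Cyp17a1 (1.19) and Star (0.97) were higher in ADSC2 by more than any control gene differed in that comparison (0.28). Cyp19a1 (-0.35, with 10.4% of all genes lower) and Cyp11a1 (0.30, with 86.0% lower) lay just outside that range. The other 4, from Hsd17b1 (-0.19) to Fdxr (0.27), lay within it. The median was 0.21, with 6 of 8 above 0 and 1 of 8 at 2-fold, beside 0.962% of 9457 genes (0.634% higher and 0.328% lower). In the treated channel alone the median was -0.01, and the WT channel of these genes was lower on the ADSC2 array by a median of 0.20, and Fdx1 and Por were then below 0 (-0.13 and -1.27).

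**Figure D4:**
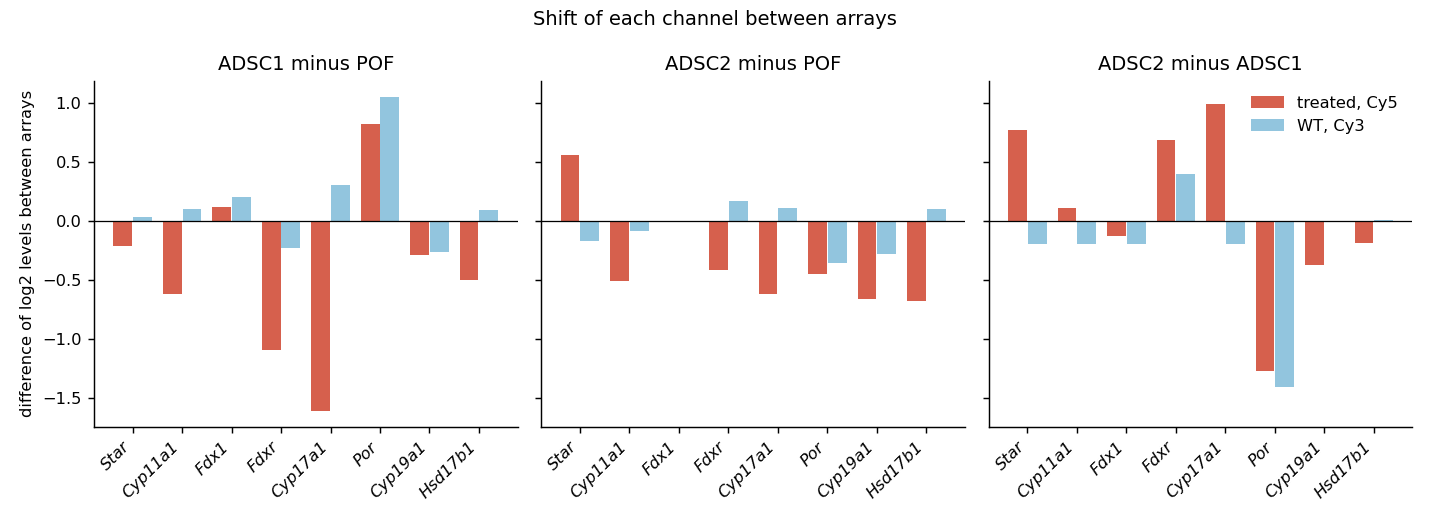
Difference of log2 level between arrays for 8 genes in the treated channel (red bars, Cy5) and the WT channel (blue bars, Cy3), for ADSC1 minus POF, ADSC2 minus POF and ADSC2 minus ADSC1. The Cyp17a1 bar of -1.61 in ADSC1 minus POF stands with a WT bar of 0.30, whereas both Por bars move together (0.82 and 1.05).

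Other genes of the pathway were read from lists of cholesterol supply, further steroid enzymes, electron transfer partners and regulators. Among further steroid enzymes, 17 of 34 on the array were measured in each difference. In ADSC1 minus POF 13 of 17 were below 0 (median -0.26), beside 50.6% of all genes. At least 2-fold higher was 1 of them, Akr1c13, an aldo-keto reductase (1.22), beside 0.513% of all genes. Akr1b7, an aldo-keto reductase that detoxifies a by-product of side-chain cleavage, was at -0.95 in that difference and above WT on every array, as given above. In ADSC2 minus POF the median was -0.14, and Akr1c18, the luteal enzyme that inactivates progesterone, was 2-fold higher (1.03), with Hsd17b11 at -0.93 and Hsd11b1 at 0.88. The WT signal of Hsd11b1 was not above background, so the size of its value is uncertain. Akr1c18 was above WT on every array, at 1.32 in ADSC2, 0.93 in ADSC1 and 0.29 in POF. Akr1c18 and Akr1c13 belong to a cluster of related aldo-keto reductase genes that a probe may not separate, so either value may include signal from a relative. Akr1c13 stood at -0.57, 1.01 and -0.20 (0.10 with median centring) against WT on the same arrays and at -1.58 in ADSC2 minus ADSC1.

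Cholesterol supply, electron transfer and regulator genes had medians close to all genes in the differences between arrays, from -0.11 to 0.06. Of cholesterol supply genes 13 of 15 were measured in ADSC1 minus POF, with 7 above 0 and none past 2-fold (0). Soat1, which stores cholesterol as esters, was below WT on every array, at -1.15 in ADSC2, -1.18 in ADSC1 and -0.81 in POF, and the sterol carrier Stard4 was at 0.71 in ADSC2 minus ADSC1. Hsd17b7, an enzyme of both cholesterol and oestradiol synthesis, was at -0.53 (0.05 with median centring), -1.25 and -0.97 against WT on the same arrays and at 0.71 in ADSC2 minus ADSC1. Acbd3, a partner of the mitochondrial cholesterol transport machinery, had -0.51, -0.64 and -0.99.

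Among electron transfer partners, Pgrmc1, a haem protein that binds P450 enzymes, was at -0.79 in ADSC2 minus POF and -0.70 in ADSC1 minus POF, and the median of 7 measured genes was -0.05 and -0.09. Hsd17b12, from the list of further steroid enzymes, had an ADSC1 minus POF difference of -0.68. Of the regulators measured, 15 of 18 in ADSC2, 13 of 18 in ADSC1 and 13 of 17 in POF were below 0 against WT after loess. The shares of all genes below 0 were 49.8%, 49.6% and 48.3%, and the regulator medians were -0.44, -0.21 and -0.26. In ADSC2 2 of 18 were 2-fold lower, beside 0.352% of all genes. These were Inhba (-1.44) and Inha (-1.31), which median centring placed at -0.52 and -0.36. Nr5a2, an activator of these enzyme genes, was at -0.78, -0.72 and -1.0 on the 3 arrays, and at -0.18, -0.20 and -0.36 with median centring. In ADSC1 and POF 0 regulators were 2-fold lower, beside 0.551% and 0.928% of all genes. In ADSC1 1 regulator was 2-fold higher, beside 2.0% of all genes. This was Nr0b1, a repressor of Nr5a1, which was above WT at 0.31 in ADSC2, 1.21 in ADSC1 and 0.65 in POF, and at -0.90 in ADSC2 minus ADSC1.

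**Figure D5:**
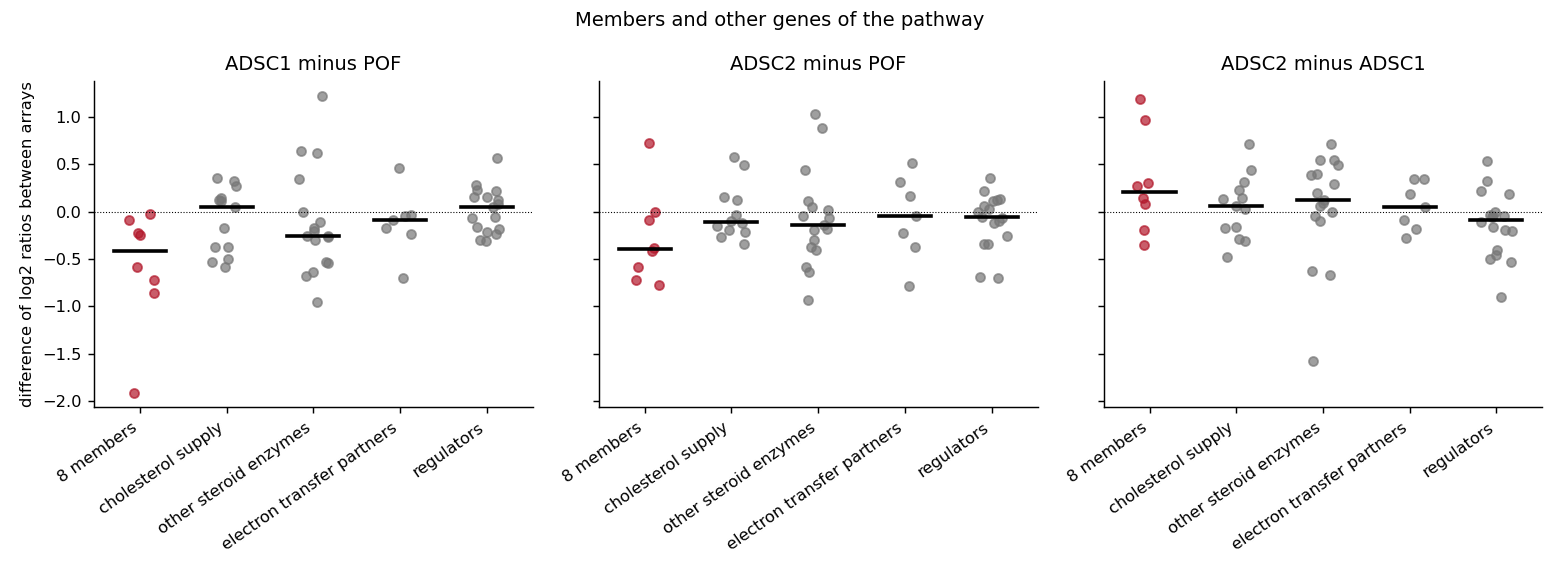
Difference of log2 ratios between arrays for the 8 genes with a value (red) and the measured genes of 4 pathway lists (grey), with 1 point per gene and a bar at the median. The median of the 8 genes is -0.42, -0.40 and 0.21 in the 3 panels, and those of the grey lists lie between -0.26 and 0.12.

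The genes nearest to Cyp17a1 over the arrays lay farther from it than those nearest to Cyp11a1 and Star lay from these. No cutoff was set, so genes that followed Cyp17a1 were not counted. Among 7346 named genes above background in both channels on all 3 arrays, the closest by Euclidean distance over the 3 log2 ratios were the cysteine protease gene Ctsk (distance 0.42), Tefm (0.51) and the water channel gene Aqp2 (0.52). Ctsk had ratios of -0.16 in ADSC2, -1.35 in ADSC1 and 0.19 in POF. For Cyp11a1 the closest were Olfr1202 (0.05), Emp1 (0.07) and Opn3 (0.07), and for Star the receptor gene Epha3 (0.12), Osr1 (0.19) and Mier3 (0.24). Among the 8 genes themselves, Fdx1 and Por were the closest pair (0.10).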

How the data were processed

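Ovary RNA was compared on 3 two-colour spotted arrays, treated in Cy5 and WT in Cy3 per the labels. The deposited intensity columns hold, per the file headers, spot medians with local background medians and SDs, and LuxScan 3.0 is the image software named in the study's design. The ratio deposited for each spot matched Cy5 over Cy3 spot medians within 1% in 100.0% of spots and was used as a check only, and the deposited flag score of 100 or -100 has no stated meaning. The authors also deposited log2 ratios, in a column for each array, whose scaling is not stated. They correlated with the background-subtracted log2 ratios of the scanner files (r of 0.943 to 0.966), with medians of 0.023 (ADSC2), 0.0082 (ADSC1) and 0.039 (POF).

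Intensities were corrected with normexp (offset 50), normalized by loess within arrays with control spots at weight 0, and scaled between arrays by Aquantile for single channels (limma 3.58.1, R 4.3.3; Python 3.11.15). A spot was above background when it exceeded the local median by 2 background SDs, and a gene was measured when either channel was so on each array used. Probes of a gene were averaged. Names were matched to RefSeq symbols. With 1 array per group no test was run. The code was tested on simulated arrays. The alternatives were median centring, the authors' values, plain background subtraction, no filter on dim genes, spots with a flag of 100, the brightest probe and, for differences, the Cy5 channel alone. With and without Hsd3b1 or Cyp17a1 was added after seeing the data. The members, lists and alternatives were chosen with earlier results of these data known. All 9 members are named. Other pathway genes are the 4 with the largest absolute value in a comparison, control genes and markers are from lists, and the 3 nearest genes are named for Cyp17a1, Cyp11a1 and Star.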

Additional observations from a re-analysis of the deposited data

Results flagged for a closer look

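Star, Cyp11a1, Fdxr and Cyp17a1 lay on opposite sides of WT in different treated groups, by more than the typical disagreement among probes for one gene. Each of these genes has 1 probe, so that disagreement does not measure the error of its own value. Fdxr in POF only just passed it (0.15 beside 0.145), and its POF level lay within the range of its WT levels. With 1 array per group these differences were not tested. Star was at 0.29 in ADSC2, -0.68 in ADSC1 and -0.44 in POF. Cyp11a1 was at -0.32 in ADSC1 and 0.41 in POF, and Fdxr at -0.44 in ADSC2, -0.72 in ADSC1 and 0.15 in POF. Cyp17a1 was at -1.31 in ADSC1 and 0.61 in POF. Median centring kept the opposite sides for Cyp17a1 (-0.61 in ADSC1 and 1.43 in POF) and for Fdxr (-0.44 in ADSC1 and 0.65 in POF). It put Cyp11a1 above WT in both groups (0.47 and 1.26). Star stayed on opposite sides in ADSC2 (0.68) and ADSC1 (-0.35), but its POF value turned to 0.06.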

How the results depend on the processing

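No paired analysis was possible because each group had 1 array, and no replicate could be left out. No value past 2-fold as reported changed sign, but Por in ADSC2 minus ADSC1 went to -1.27 in the Cy5 channel alone, against 0.14 as reported. The median of the 8 genes moved by more than the spread between probes with median centring (0.14 in ADSC2, -0.12 in ADSC1 and 0.49 in POF against WT), without Cyp17a1 (-0.25 in ADSC1 minus POF and -0.25 in POF against WT), with Hsd3b1 included (0.04 in POF against WT) and in the Cy5 channel alone (-0.01 in ADSC2 minus ADSC1). Of 306 single-gene values, median centring moved 31 of 48, the authors' values 17 of 48 and the Cy5 channel alone 15 of 24, and the other settings moved 0. Fdx1 changed sign in all 6 comparisons. Star and Cyp11a1 have no ADSC1 value from spots with a flag of 100.

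The number of genes past 2-fold depended on the setting far more, from 301 in ADSC2, 259 in ADSC1 and 198 in POF against WT. It was 881, 860 and 795 in the authors' values and 754, 726 and 622 with plain subtraction, and 464 in ADSC2 and 461 in ADSC1 with median centring. For ADSC1 minus POF (79) it was 580 in the authors' values, 414 with subtraction, 244 without the filter and 139 in Cy5 alone. For ADSC2 minus POF (73) it was 623, 420, 277 and 184 in the same order, 116 with median centring and 47 with flag 100. For ADSC2 minus ADSC1 (91) it was 644 in the authors' values, 442 with subtraction, 251 without the filter and 59 with flag 100. The split of higher against lower genes also shifted, with 266 and 35 in ADSC2, 203 and 56 in ADSC1 and 110 and 88 in POF after loess, and 442 and 22, 433 and 28, and 264 and 30 with median centring. For ADSC2 minus POF it was 59 and 14 after loess and 48 and 68 with median centring, and for ADSC1 minus POF 47 and 32, and 37 and 67. The cause was not tested.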
